A study of Rattus norvegicus with 4 samples.

Results

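The genes of the interferon response and of antigen presentation were examined in cultured rat Schwann cells (SCs) that carried the Egr2 promoter antisense RNA. The set was a fixed list of 39 gene symbols, matched to the rows of the deposited count table. Rows were found for 37 of them, among 17949 in all, while Ifnar2 and Xaf1 had no row. Of the 37, 31 had at least 10 counts in at least 2 of the 4 samples and were tested, and the other 6 (Ifit3, Oas1a, Oasl, Rsad2, Rtp4 and Psmb8) are given by their counts.

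RNA-seq was performed on primary SCs, the glia that myelinate peripheral axons, of rat sciatic nerve, 48 h after infection. In 2 samples (Lenti-AS) the virus carried the Egr2-AS, and in the other 2 (Lenti-GFP) it carried GFP as the control. All samples were grown with serum, forskolin and heregulin-β1 and were infected with polybrene. The backbone of the Egr2-AS virus encoded DsRed in place of a green protein, which makes the reporter a further difference between the groups. Each sample was described as a biological replicate, but no source used here says whether the samples came from separate animals. Since both groups carried a virus and no uninfected library was analysed here, a response to infection that both groups share would not appear as a difference between them.

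Interferons are secreted proteins that warn cells of infection. Type I interferons bind the Ifnar1 and Ifnar2 receptor and interferon gamma binds Ifngr1 and Ifngr2, and both act through JAK kinases and STAT factors. A complex that holds STAT2 and IRF9 binds the interferon-stimulated response element (ISRE), while STAT dimers bind the gamma-activated site (GAS), and genes with these elements encode RNA sensors, antiviral enzymes and the machinery that loads peptides onto major histocompatibility complex (MHC) class I. Schwann cells are known to respond to interferon gamma and to present antigen in inflamed nerve.

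Total counts per sample lay between 74024323 and 96185890. Levels are given as CPM, counts relative to a library size scaled by edgeR's TMM method. A gene counted as called where the fitted change between Lenti-AS and Lenti-GFP was at least 1.3-fold and the adjusted p lay under 0.05. CPM is not per gene length, so levels of different genes are not ranked against each other. In these bulk samples, fewer cells of a type and less RNA per cell cannot be told apart. The strand setting of the counting is not given in the sources used here, so reads of overlapping genes on opposite strands may have been mixed. The 11 Schwann cell markers with a row, S100b and Sox10 among them, summed to 9728 and 9848 CPM in Lenti-GFP. In Lenti-AS they summed to 11184 and 10087 CPM. All 11 were tested, and 1, Mbp, was called, higher in Lenti-AS, where 1.98% of all genes were called. An unadjusted p under 0.05 was found for 7, where 21.8% of all genes had one. Fitted levels were higher in Lenti-AS for 8 and lower for 3, where 51.3% of all genes were higher. Both Lenti-AS samples lay above both Lenti-GFP samples in 5 and below them in 2, where the shares over all genes were 27.7% and 27.2%. Of the 20 macrophage and leukocyte markers with a row, 18 were under 1 CPM in every sample. Their sum was 4.27 and 4.34 CPM in Lenti-GFP and 5.07 and 5.64 CPM in Lenti-AS, with Ptprc at 0.120 CPM or less and Cd3d at 0 counts in every sample. Of these markers 6 were tested and 0 called, where 1.98% of all genes were. Their median log2 fold change was 0.30, against 0.01 over all genes tested. The fitted level was higher in Lenti-AS for 4 and lower for 2, where 51.3% of all genes were higher. In 3 both Lenti-AS samples lay above both Lenti-GFP samples and in 0 below, where the shares over all genes were 27.7% and 27.2%. Of the 6, 2 had an unadjusted p under 0.05, where 21.8% of all genes did. Those with an unadjusted p under 0.05 were Cd68, with 1.29 and 1.18 CPM against 1.84 and 1.80 CPM (adjusted p = 0.194), and the myeloid factor gene Spi1, with 5 and 2 counts against 22 and 14 (log2 fold change 2.52, adjusted p = 0.102). The part of other cells in the results on the members was not tested. The 10 fibroblast markers summed to 4270 and 3824 CPM in Lenti-GFP and to 4685 and 2826 CPM in Lenti-AS, and the 9 endothelial and pericyte markers to between 242 and 296 CPM, with none of either list called by edgeR. DESeq2 called 1 of each lower, Col3a1 and Tek (adjusted p = 4.86e-06 and 0.00324). Each of these lists had 6 genes tested. Of the fibroblast markers 5 were fitted higher in Lenti-AS and 1 lower, with a median log2 fold change of 0.17. Of the endothelial and pericyte markers 2 were fitted higher and 4 lower, with a median of -0.12, where 51.3% of all genes were higher. Both Lenti-AS samples lay above both Lenti-GFP samples in 2 and 0 genes of these lists and below in 1 and 2. The shares over all genes were 27.7% and 27.2%. Over all genes edgeR called 1.98%, and DESeq2 called 5.04%, with 1.12% lower. Lenti-AS 2 stood apart by its globin genes, with 3017 CPM over the 8 erythroid genes listed against 3.95 to 7.37 CPM in the other samples.

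The peptide transporter gene Tap1 was 1.59-fold higher in Lenti-AS and was the 1 called gene among the 31 tested, where 1.98% of all 12446 genes tested were called, 1.31% higher and 0.667% lower. Without the fold cut-off 1 member passed, where 2.18% of all genes did, and at an adjusted p under 0.1 Tap1 and Tapbp passed, where 3.83% of all genes did. DESeq2 called 3 members higher (Tap1, Tapbp and Irf2) and 0 lower, where it called 5.04% of all genes, 3.92% higher and 1.12% lower. Classical antiviral genes such as Ifit3, Oas1a, Oasl and Rsad2 had at most 16 counts in any sample of either group. The interferon receptors and the MHC class I rows did not pass the test in either direction. Over the 31 members the median log2 fold change was 0.14, against 0.01 over all genes tested, and the fitted level was higher in Lenti-AS for 23 members and lower for 8, where 51.3% of all genes were higher. Both Lenti-AS samples lay above both Lenti-GFP samples in 19 members and below them in 4, so that 74.2% of the members did not overlap, where 54.9% of all genes did not, 27.7% above and 27.2% below. An unadjusted p under 0.05 was found for 5 members, 16.1% of those tested against 21.8% of all genes. The 95% interval of the fold change lay wholly within 1.5-fold in either direction for 16 of the 31.

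**Figure D1:**
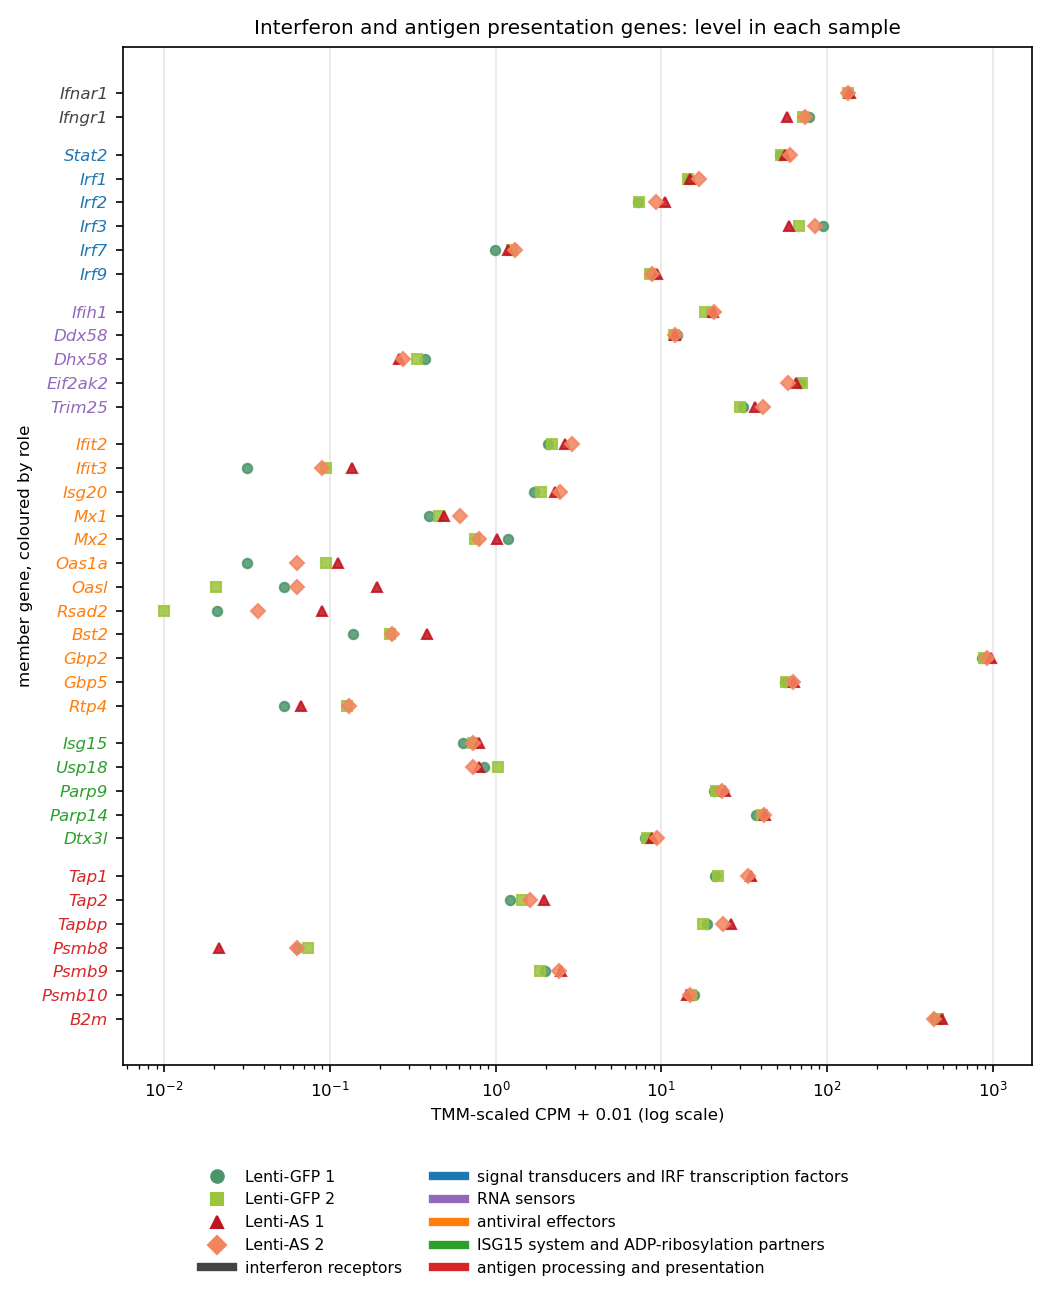
Level of each of the 37 members with a row in each of the 4 samples, as TMM-scaled CPM plus 0.01 on a log axis, with genes coloured by role. In every sample 10 members stay below 1 CPM, and Tap1 is higher in both Lenti-AS samples (34.9 and 33.5 CPM) than in both Lenti-GFP samples (21.2 and 21.8 CPM).

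The subunits of the transporter that carries peptides into the endoplasmic reticulum are encoded by Tap1 and Tap2. Tap1 was measured at 21.2 and 21.8 CPM in Lenti-GFP (1978 and 2068 counts) and at 34.9 and 33.5 CPM in Lenti-AS (3061 and 2518 counts). The groups did not overlap, and samples within a group lay close together. Tap1 rose from 21.5 ± 0.445 CPM (SD, n = 2) to 34.2 ± 1.01 CPM (SD, n = 2), a log2 fold change of 0.67 with a standard error of 0.06 (1.59-fold, 95% interval 1.43 to 1.77). The adjusted p was 0.0191 with the quasi-likelihood test of edgeR and 5.75e-10 with DESeq2. The log2 fold change was 0.64 without Lenti-AS 1, 0.70 without Lenti-AS 2, 0.65 without Lenti-GFP 1 and 0.69 without Lenti-GFP 2, but the call was lost without Lenti-GFP 1 (adjusted p = 0.230) and without Lenti-GFP 2 (adjusted p = 0.264), fits in which 1 gene of the whole table was called. It was also lost with the replicate number as a block (adjusted p = 0.0702), under which 17 genes were called.

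Tap2, the other subunit, had 1.21 and 1.42 CPM in Lenti-GFP and 1.95 and 1.60 CPM in Lenti-AS. Its groups did not overlap, but the log2 fold change of 0.43 (standard error 0.23) did not pass the test (adjusted p = 0.321). Tap2 had 113 to 171 counts per sample, and its interval ran from 0.92-fold to 1.98-fold.

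Tapbp encodes tapasin, which holds empty class I molecules at the transporter. Its level was 18.9 and 17.9 CPM in Lenti-GFP and 26.2 and 23.6 CPM in Lenti-AS. Higher values were found in each Lenti-AS sample, with a log2 fold change of 0.44 (standard error 0.08, fold change 1.35), and the adjusted p of 0.0611 missed the threshold. Tapbp was called with DESeq2 (adjusted p = 0.00271), with the likelihood ratio test (0.0234) and without Lenti-AS 2 (5.68e-05). Without Lenti-AS 1 its adjusted p was 0.00566, but the log2 fold change of 0.36 lay under the 1.3-fold cut-off. Tapbp was not called without Lenti-GFP 1 (0.373), without Lenti-GFP 2 (0.569) or with the replicate block (0.124).

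The immunoproteasome subunits Psmb8, Psmb9 and Psmb10, which replace constitutive proteasome subunits and change which peptides are cut, are given one by one. Psmb9 had 1.98 and 1.84 CPM in Lenti-GFP and 2.48 and 2.41 CPM in Lenti-AS (log2 fold change 0.36 with an SE of 0.18, adjusted p = 0.309). Psmb10 had 15.7 and 15.2 CPM in Lenti-GFP and 14.4 and 14.9 CPM in Lenti-AS (log2 fold change -0.07 with an SE of 0.08, adjusted p = 0.621). The Psmb9 groups were separated upwards and the Psmb10 groups downwards, and neither passed the test. Psmb8 had 5, 6, 1 and 4 counts in Lenti-GFP 1, Lenti-GFP 2, Lenti-AS 1 and Lenti-AS 2 and was not tested.

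B2m, the light chain of every class I molecule, had 447 and 467 CPM in Lenti-GFP and 497 and 441 CPM in Lenti-AS. The groups overlapped, and the log2 fold change of 0.04 (standard error 0.07) had an interval from 0.91-fold to 1.16-fold. The rat class I heavy chains are encoded by the RT1 genes, of which 30 class I rows were listed, with 24 tested. None of the 24 was called by edgeR, where 1.98% of all genes were, none had an unadjusted p under 0.05, where 21.8% did, and DESeq2 called none, where it called 5.04%. Their log2 fold changes ran from -0.27 to 0.66 with a median of 0.01, and 22 of the 24 overlapped between the groups, where 54.9% of all genes did not. RT1-A1 had 102 and 101 CPM in Lenti-GFP and 102 and 101 CPM in Lenti-AS. RT1-A2 had 139 and 137 CPM in Lenti-GFP and 131 and 150 CPM in Lenti-AS. The class I rows together summed to 406 and 400.5 CPM in Lenti-GFP and to 395 and 416 CPM in Lenti-AS, and near-identical copies can share reads, so the split among RT1 rows is uncertain. The 10 class II rows summed to at most 0.643 CPM in any sample, with RT1-Da at 0 counts in all 4.

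**Figure D2:**
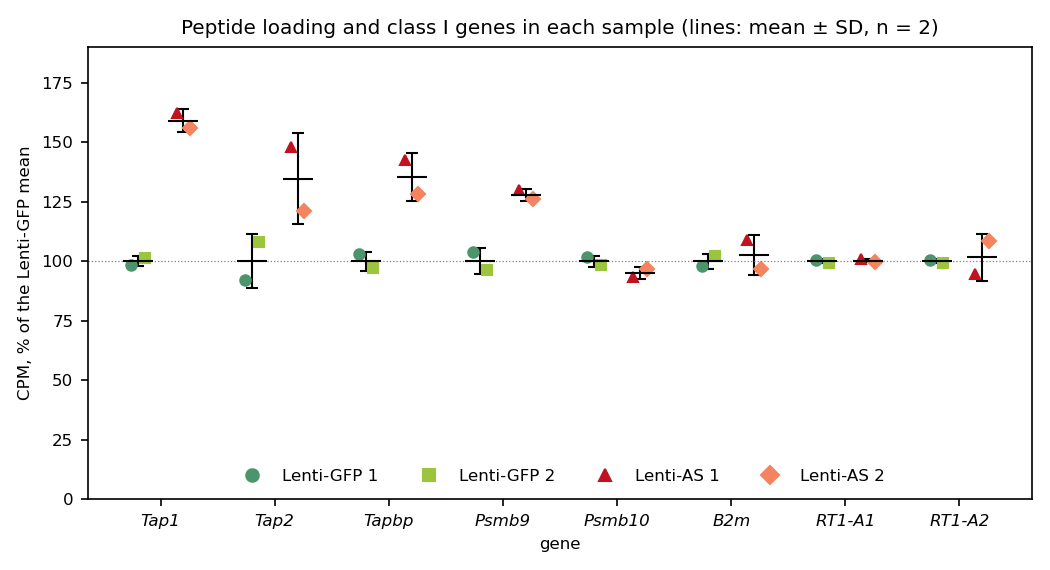
CPM of 6 antigen presentation members and of the class I genes RT1-A1 and RT1-A2 in each sample, as a percentage of the gene's Lenti-GFP mean, with lines for the mean ± SD (n = 2). Tap1 (34.9 and 33.5 against 21.2 and 21.8 CPM) and Tapbp (26.2 and 23.6 against 18.9 and 17.9 CPM) are higher in both Lenti-AS samples. Tap2 and Psmb9 are higher in both too, Psmb10 is lower in both, and B2m and RT1-A2 overlap. Among the members shown, Tap1 alone was called.

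Promoter sequences of the rat genes were taken from RefSeq (GRCr8 assembly), as windows of 250 bases before and 50 bases after the start, and 31 of the 39 members had a window. The ISRE core, spelled GAAA, any 2 bases and GAAA on either strand, was found in 19 of these 31 windows (61.3%), against 1312 of all 33469 windows in the table (3.92%). The GAS core, spelled TTC, any 3 bases and GAA, which reads the same on both strands, was found in 7 of the 31 (22.6%), against 8.87% of all windows. The list was drawn up as interferon response and antigen presentation genes, and the windows are reference sequence, so these shares do not measure the samples. Neighbouring ISRE matches shared 4 letters in Oas1a, Bst2 and Tapbp, and an ISRE and a GAS match shared 3 in Bst2. The windows of Tap1, the called gene, and of Tapbp, the member with the next smallest p, are shown with the ISRE core in capitals. The 250 bases before the start are printed, 5′ to 3′ on the strand of the gene. Those of Tap1 lie at chr20:4668544-4668793 on the minus strand and those of Tapbp at chr20:4967878-4968127 on the minus strand, both of GRCr8.
Tap1: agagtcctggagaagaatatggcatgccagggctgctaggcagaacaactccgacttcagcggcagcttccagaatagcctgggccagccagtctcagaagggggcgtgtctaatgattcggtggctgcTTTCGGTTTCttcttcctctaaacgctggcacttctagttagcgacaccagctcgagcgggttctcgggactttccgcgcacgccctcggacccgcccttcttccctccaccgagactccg
Tapbp: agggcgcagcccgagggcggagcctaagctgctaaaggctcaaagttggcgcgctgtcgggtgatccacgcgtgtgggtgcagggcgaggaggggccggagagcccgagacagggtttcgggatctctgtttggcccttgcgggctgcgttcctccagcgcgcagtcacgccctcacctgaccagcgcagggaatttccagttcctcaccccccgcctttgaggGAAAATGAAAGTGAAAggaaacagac

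The match in Tap1 began 121 bases before the start and those in Tapbp 26 and 20 bases before it. Tap1 lies beside Psmb9 on chromosome 20 of GRCr8, on opposite strands, with their starts 457 bases apart, so that their windows share 44 bases. The Psmb9 window held neither motif. It reaches 250 bases before the Psmb9 start, so the Tap1 match lies between the starts of these genes but outside that window. Short stretches around a match, with 8 bases on each side, are shown for other members to compare the letters in tested genes (Tap2, Psmb10, B2m and Gbp2) and in genes with too few counts for the test (Ifit3, Rsad2). Psmb10 had matches at -73 and -17, and both are shown in that order.
Tap2: agcgaagtGAAAGCGAAAgcccggga
Psmb10: gcaaaggcGAAAGTGAAAgagaagat
Psmb10: tggggggtGAAAGCGAAAgtaggaag
B2m: aagaacatGAAACTGAAAatgggaaa
Gbp2: ttttttagTTTCACTTTCattgtctt
Ifit3: taagtctgTTTCAGTTTCtagtttcc
Rsad2: ggttcaacTTTCATTTTCagaaaaca

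The ISRE core was present in windows of members at every level shown here, from Rsad2 to Gbp2. Among tested members with a window, the median log2 fold change was 0.15 for the 14 with the ISRE core and 0.13 for the 10 without it, matching symbols of the count table to those of RefSeq. Among all 260 tested genes whose window held the ISRE core the median was -0.02 and 2 were called (0.769%), against 2.05% of the 9227 tested genes with a window and no ISRE core. The called genes were Tap1 and the death receptor gene Fas (log2 fold change 0.88, adjusted p = 0.0232 with edgeR), which was named after its value was seen. A match is a description of letters and not of a bound site.

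**Figure D3:**
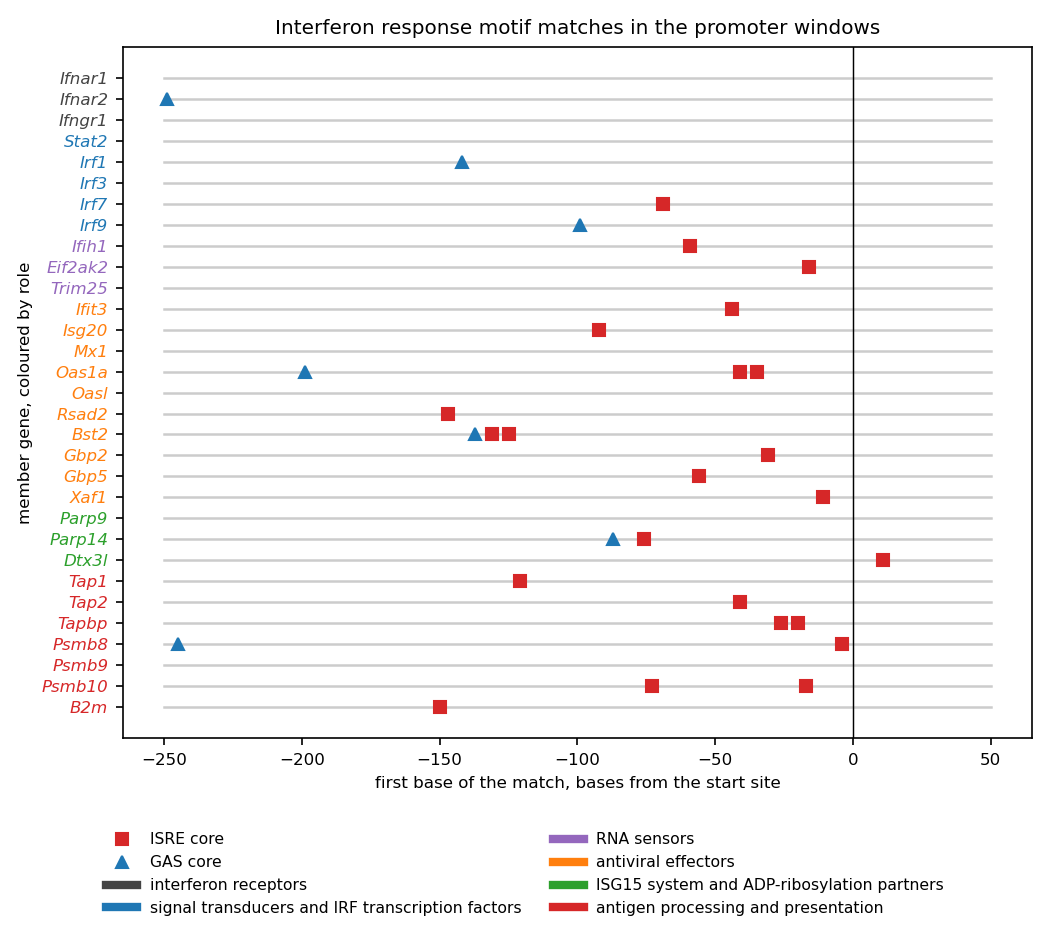
Position of each ISRE core and GAS core match in the promoter windows of the 31 members that have one, in bases from the start site, with genes coloured by role. Matches of the ISRE core lie in 19 windows and of the GAS core in 7, and Tap1 holds an ISRE match at -121.

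Of the receptor genes, Ifnar1 was nearly level across the samples. It had 134 and 134 CPM in Lenti-GFP and 138 and 133 CPM in Lenti-AS (log2 fold change 0.01 with an SE of 0.05, interval from 0.92-fold to 1.10-fold). Ifngr1, the ligand-binding chain for interferon gamma, had 77.7 and 71.9 CPM in Lenti-GFP and 57.6 and 73.5 CPM in Lenti-AS. Lenti-AS 1 alone was low, and the log2 fold change of -0.19 (standard error 0.12) did not pass the test (adjusted p = 0.408). Without Lenti-AS 2 the log2 fold change of Ifngr1 was -0.38 (adjusted p = 7.32e-05), and without Lenti-AS 1 it was -0.03 (adjusted p = 0.833).

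The interferon genes themselves had few or no counts. Ifnk had 8 and 29 counts in Lenti-GFP and 15 and 13 in Lenti-AS, and was tested (log2 fold change -0.19, adjusted p = 0.891 with edgeR). Ifnb1 had 4, 10, 0 and 2 counts in Lenti-GFP 1, Lenti-GFP 2, Lenti-AS 1 and Lenti-AS 2, and Ifng had 0 counts in every sample, which allows up to 3 counts, or 0.0399 CPM in the shallowest library. The list of other interferon ligands, receptors and JAK-STAT genes held 23 rows, with 14 tested and 0 called by edgeR, 3 at an unadjusted p under 0.05 and 0 called by DESeq2, against shares of 1.98%, 21.8% and 5.04% over all genes. Its median log2 fold change was -0.01. The smallest p-values in this list belonged to Stat3, with 140.4 and 128 CPM against 163 and 156 CPM, and Jak2, with 67.2 and 65.1 CPM against 56.3 and 57.2 CPM, and neither passed the test with edgeR (adjusted p = 0.116 and 0.142). DESeq2 gave adjusted p-values of 0.0220 for Stat3 and 0.0317 for Jak2, at fold changes under 1.3.

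Stat2, which joins IRF9 in the ISRE-binding complex, had 51.91 and 53.01 CPM in Lenti-GFP and 55.45 and 59.98 CPM in Lenti-AS (log2 fold change 0.14 with an SE of 0.07, adjusted p = 0.326). Irf9 had 8.90 and 8.49 CPM in Lenti-GFP and 9.47 and 8.81 CPM in Lenti-AS, and its groups overlapped. Irf1, an activator induced by interferon gamma, had 14.8 and 14.6 CPM against 15.0 and 16.9 CPM (log2 fold change 0.12, adjusted p = 0.488). The Stat2 and Irf1 groups did not overlap, and none of these differences passed the test.

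Irf2, which competes with IRF1 for the same elements, had 7.21 and 7.32 CPM in Lenti-GFP and 10.5 and 9.26 CPM in Lenti-AS. The groups did not overlap, and the log2 fold change of 0.44 (standard error 0.12, fold change 1.36) missed the threshold with edgeR (adjusted p = 0.115) and passed it with DESeq2 (adjusted p = 0.0390). With edgeR, Irf2 was called without Lenti-AS 2 (log2 fold change 0.53, adjusted p = 0.00237) and not without Lenti-AS 1 (0.35, adjusted p = 0.0624), without Lenti-GFP 1 (adjusted p = 0.520) or without Lenti-GFP 2 (adjusted p = 0.677). Irf3, the factor that RNA sensing activates, had 95.1 and 68.0 CPM in Lenti-GFP and 58.7 and 84.9 CPM in Lenti-AS, and the spread within each group was wider than the difference between them. Its log2 fold change was -0.18 with all samples, -0.47 without Lenti-AS 2 (adjusted p = 0.000571), 0.08 without Lenti-GFP 1 and 0.06 without Lenti-AS 1. Irf7, the factor that amplifies type I interferon, had 0.986 and 1.24 CPM in Lenti-GFP and 1.18 and 1.29 CPM in Lenti-AS, with overlapping groups.

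**Figure D4:**
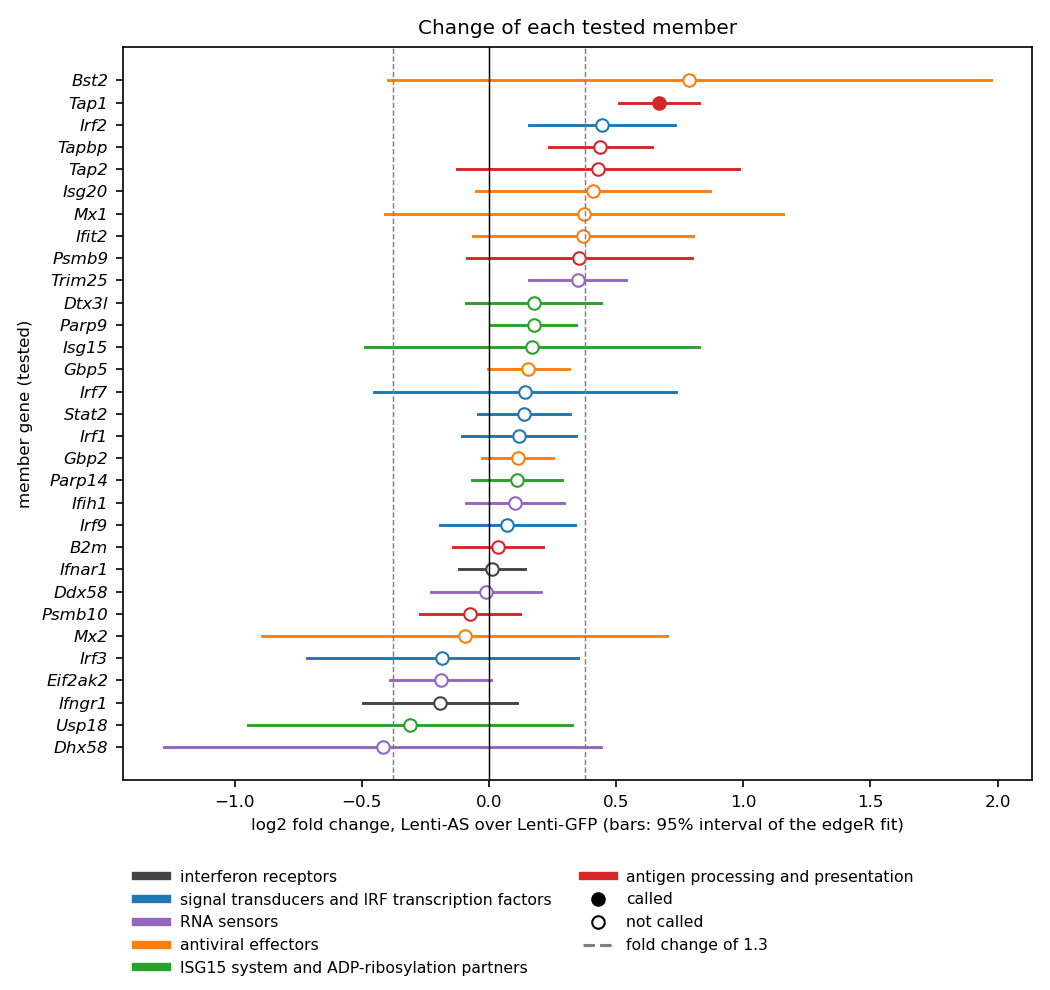
Log2 fold change of each of the 31 tested members, Lenti-AS over Lenti-GFP, with bars for the 95% interval of the edgeR fit, filled points for called genes and dashed lines at a fold change of 1.3. The interval of Tap1 runs from 0.51 to 0.83, and Bst2, with 12 to 33 counts per sample, has the highest fitted value of 0.79 with an interval from -0.40 to 1.97.

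Cytosolic sensors detect viral RNA. Ifih1, which encodes MDA5, had 20.1 and 18.3 CPM in Lenti-GFP and 20.4 and 20.8 CPM in Lenti-AS, and Ddx58, which encodes RIG-I, had 12.35 and 11.92 CPM against 12.03 and 12.07 CPM. Their log2 fold changes were 0.10 and -0.01 (adjusted p = 0.484 and 0.956). Dhx58, a regulator of these sensors, had 20 to 34 counts per sample and a log2 fold change of -0.42 with a wide interval, from -1.28 to 0.44. Eif2ak2 encodes PKR, the kinase that halts translation on double-stranded RNA, and had 69.0 and 70.8 CPM in Lenti-GFP and 64.9 and 57.7 CPM in Lenti-AS. Lower values were found in each Lenti-AS sample (log2 fold change -0.19, standard error 0.08), without passing the test (adjusted p = 0.244).

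Trim25, a ubiquitin ligase of the RIG-I pathway, had 31.1 and 30.0 CPM in Lenti-GFP and 36.8 and 40.9 CPM in Lenti-AS. Higher values were found in each Lenti-AS sample, with a log2 fold change of 0.35 (standard error 0.08, fold change 1.27, adjusted p = 0.0857). DESeq2 gave Trim25 an adjusted p of 0.00822, below the threshold, at a fold change under 1.3. With edgeR, Trim25 was called without Lenti-AS 1 (log2 fold change 0.42, adjusted p = 0.000139), and without Lenti-AS 2 it had a log2 fold change of 0.27, under the fold cut-off (adjusted p = 0.0104). Its adjusted p was 0.406 without Lenti-GFP 1 and 0.615 without Lenti-GFP 2. Of the 17 tested genes in the list of other nucleic acid sensing genes, 0 were called by edgeR, 5 had an unadjusted p under 0.05, and DESeq2 called 2, beside 1.98%, 21.8% and 5.04% of all genes. The smallest p-values there belonged to Adar, the RNA-editing enzyme that keeps self RNA from being sensed, with 17.6 and 19.2 CPM against 25.1 and 24.1 CPM (log2 fold change 0.42, adjusted p = 0.0594), and Mavs, the adaptor downstream of RIG-I and MDA5, with 6.02 and 5.25 CPM against 8.20 and 7.62 CPM (log2 fold change 0.49, adjusted p = 0.121). DESeq2 gave adjusted p-values of 0.00324 for Adar and 0.0415 for Mavs.

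Among the antiviral effectors were genes that were well counted and genes close to 0. Gbp2, a guanylate-binding GTPase induced by interferon gamma, had 857 and 889 CPM in Lenti-GFP and 971 and 918 CPM in Lenti-AS (log2 fold change 0.11 with an SE of 0.06, adjusted p = 0.300). Gbp5 had 56.1 and 56.3 CPM against 62.9 and 62.3 CPM (log2 fold change 0.15 with an SE of 0.07, adjusted p = 0.238). Both genes were well counted in the control group too, and their Lenti-AS samples were higher by 1.08-fold and 1.11-fold without passing the test.

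Ifit2, which encodes an RNA-binding protein, had 2.07 and 2.17 CPM in Lenti-GFP and 2.62 and 2.86 CPM in Lenti-AS (log2 fold change 0.37, adjusted p = 0.280). Isg20, an exonuclease, had 1.69 and 1.86 CPM against 2.27 and 2.45 CPM (log2 fold change 0.41, adjusted p = 0.266). The GTPases Mx1 and Mx2 had 36 to 45 and 59 to 110 counts per sample, with log2 fold changes of 0.37 and -0.10 (adjusted p = 0.527 and 0.889), and they are similar enough in sequence that reads could be shared. Bst2, which encodes tetherin, had 12, 21, 33 and 17 counts in Lenti-GFP 1, Lenti-GFP 2, Lenti-AS 1 and Lenti-AS 2 (adjusted p = 0.386).

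The untested effectors are genes that type I interferon is known to induce in many cells. Ifit3 had 2 and 8 counts in Lenti-GFP and 11 and 6 in Lenti-AS, and Oas1a, an oligoadenylate synthetase, had 2 and 8 against 9 and 4. Oasl had 4 and 1 counts in Lenti-GFP and 16 and 4 in Lenti-AS, and Rsad2, which encodes viperin, had 1 and 0 against 7 and 2, where the 0 allows up to 3 counts, or 0.0317 CPM. Rtp4 had 4 and 11 counts against 5 and 9. Summed over these 5 genes there were 13, 28, 48 and 25 counts in Lenti-GFP 1, Lenti-GFP 2, Lenti-AS 1 and Lenti-AS 2, and Lenti-AS 1 was the highest in 4 of them. Scaled to library size these sums were 0.139 and 0.295 CPM in Lenti-GFP and 0.548 and 0.333 CPM in Lenti-AS, so the groups did not overlap on that scale. On the CPM scale both Lenti-AS samples of Oasl and Rsad2 lay above both Lenti-GFP samples, and the groups of Ifit3, Oas1a and Rtp4 overlapped. For Oasl, Lenti-GFP 1 and Lenti-AS 2 had 4 counts each and differed only by library size. Psmb8 and Ifnb1, also near 0, were lower in both Lenti-AS samples. Over all genes tested, which leave out these genes, 27.7% lay above and 27.2% below. In the fit with no filter on low counts all 37 members were tested, and Tap1 was the 1 called.

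Of 61 rows in the list of other interferon-stimulated genes, 30 were under 1 CPM in every sample and 39 were tested. None was called by edgeR, 4 had an unadjusted p under 0.05, and DESeq2 called 1 (Lgals3bp), where the shares over all genes were 1.98%, 21.8% and 5.04%. Their median log2 fold change was 0.04. Ifit1 had 0, 2, 4 and 3 counts in Lenti-GFP 1, Lenti-GFP 2, Lenti-AS 1 and Lenti-AS 2. The smallest p-values belonged to Lgals3bp, a secreted glycoprotein, with 3.46 and 4.22 CPM against 7.44 and 5.06 CPM, and to Oas3, with 29 and 69 counts against 16 and 12 (adjusted p = 0.157 and 0.167). Their fitted changes had opposite signs, and neither passed the test.

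ISG15 is a ubiquitin-like protein that is attached to other proteins after interferon, and Usp18 removes it and dampens receptor signalling. Isg15 had 0.621 and 0.717 CPM in Lenti-GFP and 0.787 and 0.718 CPM in Lenti-AS, and Usp18 had 0.846 and 1.02 CPM against 0.787 and 0.718 CPM. Their fitted changes had opposite signs, 0.17 and -0.31 on the log2 scale (adjusted p = 0.746 and 0.520). Parp9 and Dtx3l encode partners in one ubiquitin ligase complex, and their starts lie 1214 bases apart on opposite strands of GRCr8. Parp9 had 20.8 and 21.3 CPM in Lenti-GFP and 24.3 and 23.3 CPM in Lenti-AS, and Dtx3l had 8.01 and 8.17 CPM against 8.83 and 9.46 CPM. Their log2 fold changes were both 0.18 (standard errors 0.07 and 0.11, adjusted p = 0.214 and 0.386). Parp14, the neighbouring gene of the same family, had 37.0 and 40.3 CPM against 42.0 and 41.5 CPM (log2 fold change 0.11, adjusted p = 0.417).

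Of the 44 tested genes in the list of other antigen presentation genes, which includes the RT1 rows, 0 were called by edgeR, 2 had an unadjusted p under 0.05 and DESeq2 called 0, compared with 1.98%, 21.8% and 5.04% of all genes. The median log2 fold change was 0.01. The smallest p-values belonged to Fcgrt, the heavy chain of the neonatal Fc receptor, which also pairs with B2m, with 189 and 184 CPM against 164 and 154 CPM (log2 fold change -0.23, adjusted p = 0.105 with edgeR and 0.0147 with DESeq2, at a fold change under 1.3), and to the proteasome subunit gene Psma3, with 52.8 and 50.0 CPM against 46.8 and 39.3 CPM (log2 fold change -0.26, adjusted p = 0.215). Of 15 tested genes that restrain interferon signalling, 0 were called by edgeR and 0 by DESeq2, and 2 had an unadjusted p under 0.05, compared with the same shares of all genes. These 2 were Cyld, with 30.04 and 31.47 CPM against 27.01 and 26.05 CPM, and Pias4, with 34.0 and 31.1 CPM against 37.0 and 38.7 CPM (adjusted p = 0.146 and 0.175).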

How the data were processed

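RNA-seq of 4 samples of rat SCs was analysed, 2 per group, mapped from their titles and column names. The authors aligned reads to rn6 and deposited whole-number counts of reads per gene, counted with featureCounts over RefSeq exons, without normalization. The study's methods name hisat2 as the aligner while the submitters' processing notes name GSNAP, and versions, strand setting and the handling of reads with several matches are not given in the sources used here. One row that repeats the header was dropped.

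The 12446 genes that reached 10 counts in 2 or more samples were fitted with edgeR 4.0.16 in R 4.3.3 (TMM, glmQLFit, glmQLFTest, no replicate term), and their p-values were adjusted together (Benjamini-Hochberg). Standard errors came from the F statistic, intervals from the t distribution with the fit's degrees of freedom. Limits on 0 counts cover counting error only, and p-values measure the spread between these samples. A permutation test of 2 against 2 cannot give a two-sided p under 0.333 and was not used. Alternatives were DESeq2 1.42.0, limma-voom (limma 3.58.1), the likelihood ratio test, other scalings and filters, a replicate block, leaving out each sample and other cut-offs. The calculation was run on simulated counts with 200 changed genes, drawn from the levels and spreads that edgeR estimated here. Because the simulation shares those estimates, it cannot show how well the fit holds for these samples. Counts of the 2 Lenti-GFP samples differed beyond sampling noise (chi-square of 31.1 a gene), as did those of Lenti-AS (100.0), so neither pair was 1 library deposited again. This does not tell separate cultures from repeat libraries of 1 culture.

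The members and lists were chosen with earlier results of these data known. All members are accounted for, and of the other interferon and presentation lists, in which edgeR called no gene, the 2 smallest p-values are named, with Ifnb1, Ifng, Ifit1 and RT1 rows by their levels. Ifnk was named after its values were seen. Of the cell type marker lists, S100b, Sox10, Mbp, Ptprc, Cd3d, Cd68, Spi1, Col3a1 and Tek were named after their values were seen. Some items are not reported here. RefSeq windows and neighbours are of GRCr8, not of rn6, and all 39 members matched a RefSeq gene by symbol or synonym.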

Additional observations from a re-analysis of the deposited data

How the results depend on the processing

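Tap1 was called with RLE, upper-quartile and library-total scaling, both other filters, limma-voom, DESeq2, the likelihood ratio test, without the globin genes and without either Lenti-AS sample, with log2 fold changes from 0.64 to 0.70. Of all genes, 246 were called, 627 with DESeq2, 521 with the likelihood ratio test, 17 with the replicate block and 1 to 1519 with one sample left out (1 without either Lenti-GFP sample, 841 without Lenti-AS 1 and 1519 without Lenti-AS 2), where the lone sample is assumed to vary like the other group. Members called were 1, but 3 with DESeq2 (Tap1, Tapbp and Irf2), 2 with the likelihood ratio test, 2 at an adjusted p under 0.1, 0 with the replicate block and 0 to 4 with one sample left out (0 without either Lenti-GFP sample, 2 without Lenti-AS 1 and 4 without Lenti-AS 2). The median log2 fold change over members was 0.12 to 0.17 under all alternatives, 0.17 with library totals, which moved the median of all genes to 0.04. The removal of the globin genes was added after seeing the data.

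No label ties a replicate number to a shared culture, so no pairing was used. The deviations of equally numbered samples had a correlation of -0.0176 over genes, which with 2 samples per group cannot decide whether they were paired. The block changed the call of no member but Tap1.

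Of 429 recomputed member values, 404 kept direction and side of the threshold, 3 lost and 13 gained an adjusted p under 0.05, and 9 changed sign. The log2 fold change of Ddx58 was 0.021 with library totals. With one sample left out the log2 fold change lay between -0.035 and 0.018 for Ddx58, -0.011 and 0.32 for Irf7, -0.39 and 0.28 for Mx2, -0.47 and 0.083 for Irf3, -0.011 and 0.038 for Ifnar1 and -0.050 and 0.12 for B2m. The causes were not tested, beyond fewer samples in the fits that leave one out. The 6 members left out by the filter had at most 16 counts in any sample, and what depth would resolve for them was not tested.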
